A study of Rattus rattus with 23 samples.

Results

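Gene expression in the nasal respiratory epithelium of 4 rats exposed to hydrogen sulfide (H2S) and labelled as sampled at 3 h was compared with that of 4 rats that breathed air and were sampled at 24 h. These 8 arrays, 1 per rat, were taken by their labelled time and gas from the 23 arrays of the series. The times count from the initial exposure, which itself lasted 3 h, and the labels do not say whether from its start or its end. No air group was sampled at 3 h, so the exposure and the hour of sampling cannot be told apart in any value below. All animals were male Sprague-Dawley rats, given as 60 days old in the sample labels and as 10 weeks old in the study's text. They were held in a nose-only system for 3 h on a single day, in 200 ppm H2S or in air, and the exposed animals (3, 4, 5 and 6) and the air animals (15, 16, 17 and 18) keep the numbers of their labels. A second air group (animals 19 to 22), sampled at 144 h after 5 daily air sessions, served as another reference. The tissue was respiratory epithelium cut out by laser capture where the gas injures the nose and the lining later regenerates, and its RNA passed through 2 rounds of amplification before hybridisation.

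H2S is a gas that blocks cytochrome c oxidase, the last enzyme of the mitochondrial respiratory chain, and cells dispose of it by oxidation in the mitochondrion, a pathway that begins with sulfide quinone oxidoreductase. The respiratory lining of the nose is built of ciliated, secretory and basal cells, and basal cells supply new cells after damage. Injured epithelium is known to switch on immediate-early transcription factors, heat shock proteins and antioxidant genes within hours, ahead of any regrowth.

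Levels are given as log2(signal + 16), on which a difference of 1 is a 2-fold change of signal for bright genes. For dim genes the same difference stands for a larger fold change of signal. Differences are exposed minus air, and SE is the standard error that limma fitted. The air animal 18 stood apart from the rest. Its array had a median signal of 341 where the other 7 lay between 143 and 183, its median correlation with the other arrays of the series was 0.408 against 0.832 to 0.9 for those 7, and its spike-in controls were 160 times those of the median array. It was the lowest of the 4 air animals for 5701 of 11249 genes (50.7%) and the highest for 3852 (34.2%). The median SD over genes among the air animals was 0.817 with it and 0.363 without it, against 0.476 among the exposed animals, and differences from the air animals at 24 h are therefore given with and without this array. The RNA integrity number was 2.6 for animal 18, 4.2 and 5.1 for animals 16 and 17, and 7.2 and 5.3 for the exposed animals 3 and 4, and it is not given for animals 5, 6 and 15. The treatment field of animals 6 and 18 names 5 exposure days, against their titles. Among the air animals at 144 h, animal 22 had the lowest median correlation (0.685) and a spike-in ratio of 34.4.

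Few single genes passed the test, and nearly all of those were higher in the exposed animals. Of 19822 probe sets, 16 (0.0807%) passed an adjusted p of 0.05 in limma, 14 higher (0.0706%) and 2 lower (0.0101%), and they carry 12 genes by the rule used for naming. That rule also requires that the exposed animals and the air animals at 24 h do not overlap. Their separation in these 12 genes was therefore fixed by the choice. The 12 genes include stress transcription factors, heat shock and metal-binding proteins, an aldo-keto reductase, cell-surface receptors, a matrix protease and a ribosome assembly factor. An unadjusted p under 0.05 was reached by 1942 probe sets (9.8%). The exposed and air animals did not overlap for 395 genes on the higher side (3.51%) and 145 on the lower side (1.29%). Groups of 4 and 4 independent animals with no difference would separate with probability 0.0286, both directions counted and equally likely. Without animal 18 the number of probe sets past the threshold was also 16 (0.0827%), of which 13 were among the 16 above, and the genes that did not overlap became 661 higher (5.96%) and 503 lower (4.54%). The share of genes with a positive difference was 59.3% with animal 18 and 51.5% without it, and the median difference over all genes was 0.14 and 0.02. A fit of the 8 arrays alone passed no probe set in limma, with 879 at an unadjusted p under 0.05.

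**Figure D1:**
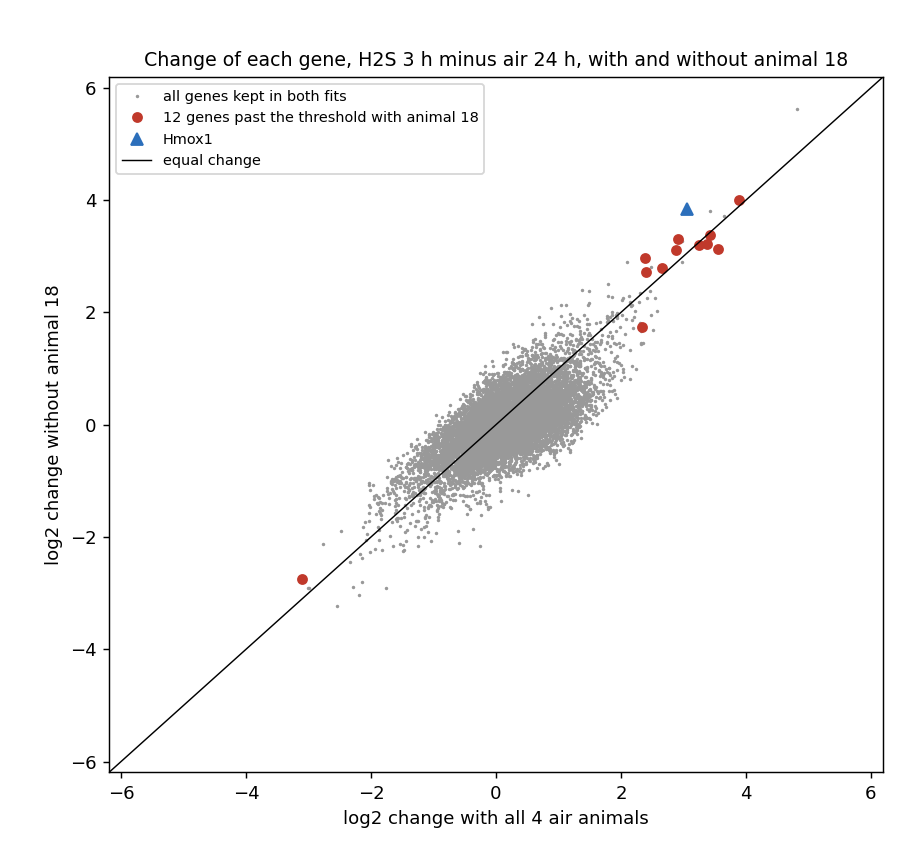
Log2 difference of each gene between the exposed animals at 3 h and the air animals at 24 h, with all 4 air animals (horizontal axis) and without animal 18 (vertical axis). Grey points are genes kept in both fits, red points the 12 genes named as past the threshold and the triangle Hmox1, at 3.06 with animal 18 and 3.84 without it. The red points lie near the line of equal difference, while the grey cloud is wider along the horizontal axis.

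Atf3 and Fosl1, transcription factors of the AP-1 and stress response families that are induced within hours of injury, rose in the exposed animals. Atf3 read 11.2, 10.86, 11.41 and 13.55 in the exposed animals 3 to 6 and 8.84, 8.63, 8.13 and 7.88 in the air animals 15 to 18. Fosl1 read 8.63, 7.96, 9.45 and 10.8 against 6.53, 5.04, 5.93 and 5.67. For both genes animal 6 was the highest and no exposed animal fell within the range of the air animals. The air values of Fosl1 lay below the middle of their arrays, where a signal may be near background. Among other genes, the same holds for Serpinb2, Fosb, Rnd1 and Ethe1 in air and for Adora2b in air animals 15 to 17. For Maff, Il1r2 and Il1rl1, described below, it holds in air animals 15 to 17 and 19 to 21. In the exposed animals it holds for Spetex2l2, Pla2r1 and an unnamed probe set past the threshold that was lower. Atf3 was higher by 3.38 (SE 0.49, limma adjusted p = 0.00649) and Fosl1 by 3.42 (SE 0.52, limma adjusted p = 0.00649). Without animal 18 the differences were 3.22 and 3.38, with limma adjusted p of 0.00994 and 0.0141.

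Heat shock genes, whose products refold or clear damaged proteins, formed the next group. Hspa1a, the inducible member of the main chaperone family, read 12.24, 11.3, 13.13 and 14.61 in the exposed animals against 9.43, 9.58, 10.13 and 10.62 in air. It rose by 2.88 (SE 0.56, limma adjusted p = 0.0472), or by 3.11 without animal 18 (limma adjusted p = 0.0477). Hspa1a has a near-identical copy, Hspa1b, and the signal may hold both. A brighter probe set assigned to both genes differed by 2.27 and missed the threshold (limma adjusted p = 0.204). Zfand2a, an arsenite-inducible protein that works with the proteasome, read 10.65, 10.79, 11.15 and 13.09 against 8.55, 8.77, 8.77 and 9.98. Its rise was 2.4 (SE 0.42, limma adjusted p = 0.0222) with animal 18, the highest of the air animals for this gene, and 2.72 without it. Dnajb1, a partner of the main chaperone, has 2 probe sets. The dimmer one passed (3.07, limma adjusted p = 0.00649) and the brighter one, which represents the gene, was higher by 1.68 with an adjusted p of 0.165 (2.6 and 1.47 without animal 18). It is named although it lies outside the naming rule.

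Among genes of metal binding and of the NRF2 response, which handle metals, oxidants and reactive aldehydes, Mt2A and Akr1b8 rose. The metallothionein Mt2A read 11.82, 12.54, 12.76 and 13.82 in the exposed animals against 9.76, 9.51, 9.02 and 11 in air, a rise of 2.91 (SE 0.51, limma adjusted p = 0.0222) that was 3.3 without animal 18. The aldo-keto reductase Akr1b8 read 13.07, 13.22, 13.68 and 15.03 against 9.2, 9.59, 10.47 and 10.2. No animals overlapped for either gene, and Akr1b8 had the largest rise of the 12 genes, 3.89 (SE 0.73, limma adjusted p = 0.0401). Its difference was 4 without animal 18, and the adjusted p then missed the threshold (0.0636). Hmox1, the enzyme that degrades heme, missed the threshold with animal 18 and passed it without that array. It read 10.34, 11.15, 11.14 and 12.9 against 6.72, 7.63, 8.27 and 10.68, so that only animal 18 reached into the exposed range. Its difference of 3.06 (SE 0.68) missed the threshold with animal 18 (limma adjusted p = 0.0991), and without it the difference was 3.84 (limma adjusted p = 0.00483).

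A set of 3 surface receptors, listed together with earlier results of these data known, was higher in every exposed animal than in any air animal. Tnfrsf12a, the receptor of the cytokine TWEAK, read 12.07, 12.16, 12.76 and 14.11 against 10.11, 8.7, 9.89 and 9.4, a rise of 3.25 (SE 0.55, limma adjusted p = 0.0181) that was 3.21 without animal 18. Pvr, an adhesion molecule of the nectin family that natural killer cells recognise, read 10.31, 10.43, 11.13 and 11.71 against 8.43, 8.15, 7.73 and 8.67, a rise of 2.65 (SE 0.4, limma adjusted p = 0.00649) that was 2.79 without animal 18. Adora2b, a low-affinity receptor for extracellular adenosine, read 10.03, 9.73, 10.69 and 10.31 against 7.2, 7.18, 7.28 and 9.59. The air animals 15 to 17 lay within a range of 0.1 for Adora2b and animal 18 stood just under the lowest exposed animal. The rise of Adora2b was 2.38 (SE 0.46, limma adjusted p = 0.0418) with animal 18 and 2.97 (limma adjusted p = 0.000255) without it.

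The other genes past the threshold belong to separate processes. Mmp3, a protease that cuts extracellular matrix, read 12.64, 11.39, 11.6 and 11.65 against 9.54, 8.95, 7.58 and 6.99, a rise of 3.56 (SE 0.67, limma adjusted p = 0.0401) that was 3.13 and missed the threshold without animal 18 (limma adjusted p = 0.125). Mrto4, which helps assemble the large ribosomal subunit, read 9.48, 9.56, 8.95 and 10 against 8.14, 7.84, 7.26 and 5.39, a rise of 2.34 (SE 0.45, limma adjusted p = 0.0419). Without animal 18, the lowest of the air animals, it was 1.75 (limma adjusted p = 0.0477), and a second, dimmer probe set of Mrto4 differed by -0.1. Spetex2l2 fell: it read 6.87, 4.83, 4.67 and 5.08 against 8.5, 8.4, 7.46 and 9.52, a difference of -3.11 (SE 0.59, limma adjusted p = 0.0401) that became -2.75 and missed the threshold without animal 18 (limma adjusted p = 0.117). The other 3 probe sets past the threshold carry no gene name here; 2 were higher and 1 was lower, with a difference of -2.82, and -3.39 without animal 18.

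How far these calls depended on single animals differed between the genes. Leaving out each of the 8 animals in turn, Atf3 and Pvr stayed past the threshold in all 8 fits, with adjusted p of up to 0.0332 (without animal 5) and 0.0446 (without animal 6). Fosl1 missed it only without animal 16 (adjusted p = 0.0512) and Tnfrsf12a without animals 5, 6 or 16 (up to 0.131). Mt2A and Zfand2a passed in 3 of the 8 fits, Adora2b, Mrto4, Hspa1a and Spetex2l2 in 2, and Akr1b8 and Mmp3 in 1. The differences themselves moved less, from 2.55 to 3.3 for Mt2A, from 2.29 to 3.39 for Hspa1a and from 3.46 to 4.12 for Akr1b8. The count of 16 probe sets became 3 without animal 16, 5 without animal 5, 5 without animal 6 and 10 without animal 17. Exposed animal 6 was the highest of the 8 animals for 9 of the 12 genes.

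**Figure D2:**
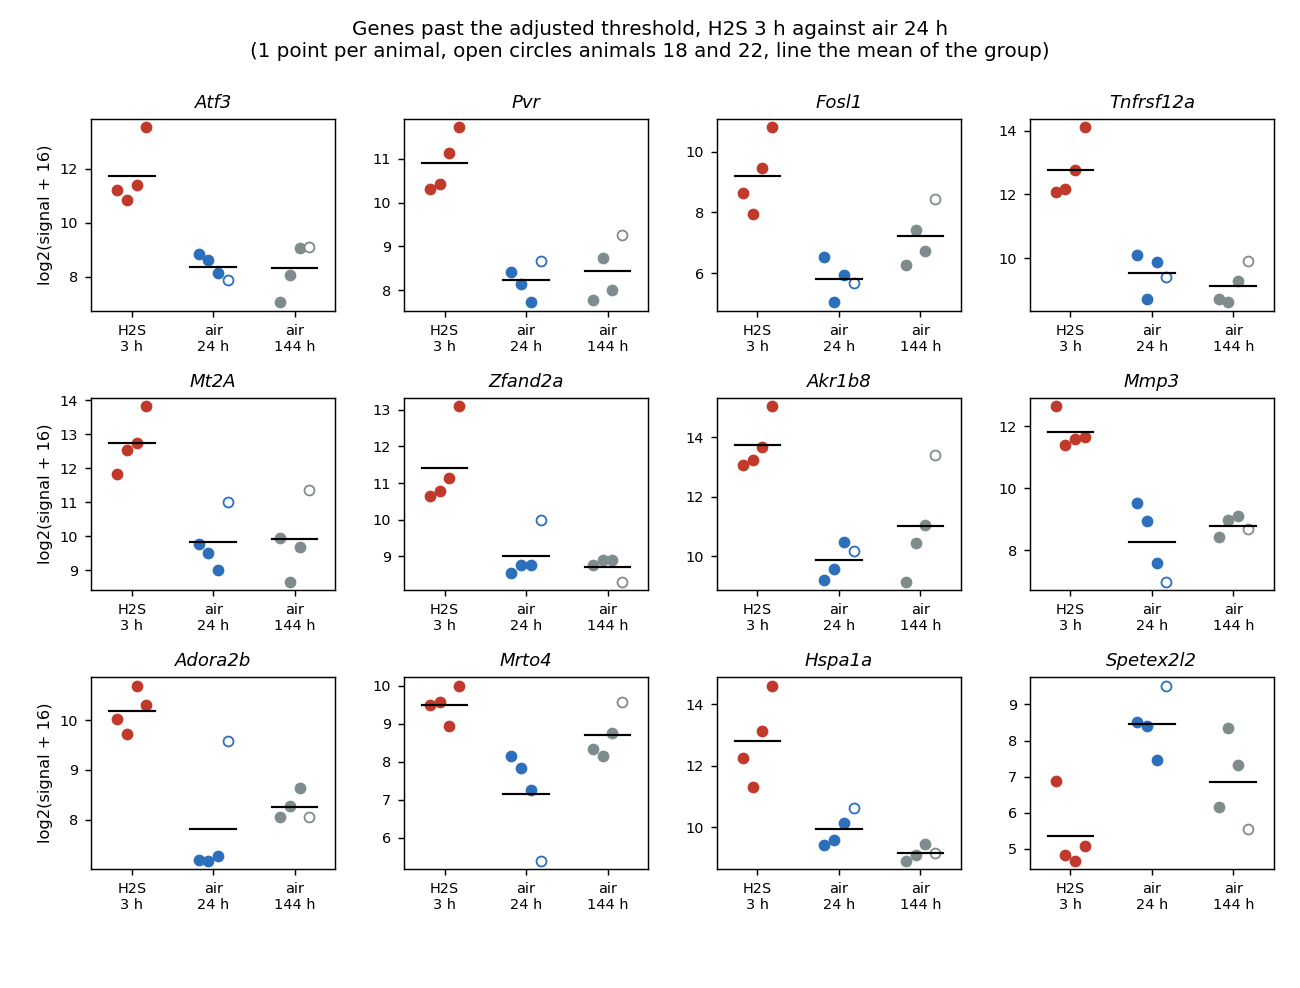
Log2(signal + 16) of the 12 genes in each animal (vertical axis, separate scale per gene) for H2S at 3 h, air at 24 h and air at 144 h. Points are animals, open circles animals 18 (air at 24 h) and 22 (air at 144 h), and lines group means. The exposed animals and the air animals at 24 h do not overlap in any panel, which the naming rule required.

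Set against the air animals at 144 h, which share no array with the first air group, the same exposed animals gave 19 probe sets past the threshold (0.0959%), 13 higher (0.0656%) and 6 lower (0.0303%). Atf3 was higher by 3.44, Tnfrsf12a by 3.64, Hspa1a by 3.66, Zfand2a by 2.7, Pvr by 2.45 and Mt2A by 2.81, all past the threshold (limma adjusted p from 0.0046 to 0.029). Akr1b8 differed by 2.74 (limma adjusted p = 0.184) and Fosl1 by 1.99 (limma adjusted p = 0.178). For both genes animal 22, at 13.39 and 8.43, lay within the exposed range. Mrto4 differed by 0.8 and Spetex2l2 by -1.48, with adjusted p of 0.648 and 0.472. Adora2b and Mmp3 also missed the threshold here. Animals 19 to 22 read 8.05 to 8.63 for Adora2b and 8.43 to 9.11 for Mmp3, below every exposed animal. The neuropeptide gene Calcb (3.91), Sfn, a regulator of the cell cycle in squamous cells (3.91), and Tmem43, a protein of the inner nuclear membrane (2.14), rose in this comparison, and Pfkm, a muscle-type glycolytic enzyme (-1.8), Tmem35a (-1.88) and Nudt12 (-1.79) fell (limma adjusted p from 0.0206 to 0.0465). The count was 83 without animal 18, whose array enters this comparison through the shared spread, and 7 without animal 6 or without animal 19, 11 without animal 21 and 12 without animal 3.

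Stress and repair lists held many genes that were higher without passing the test. Over the 6 lists, 117 genes were measured, 100 of them (85.5%) had a positive difference and 31 did not overlap on the higher side (26.5%, against 3.51% of all genes). All lists, here and below, were chosen with earlier results of these data known. Their shares beside those of all genes are therefore descriptions and not a test of the lists. Of the NRF2, glutathione and metal-binding genes, 19 of 20 had a positive difference with a median of 1.08 (1.06 without animal 18), 2 rose, and 10 did not overlap. Nqo1, a quinone reductase, read 12.96, 13.33, 14.23 and 14.43 against 11.08, 11.72, 11.94 and 11.62, higher by 2.15 (limma adjusted p = 0.165; 2.16 without animal 18). All 19 heat shock genes had a positive difference (17 without animal 18), with a median of 1.05 (0.94 without animal 18); 2 rose and 8 did not overlap. The small heat shock protein Hspb1 read 13.08, 12.92, 14.25 and 15.62 against 10.74, 11.21, 11.48 and 11.63, a difference of 2.7 (limma adjusted p = 0.165; 2.82 without animal 18).

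Of 25 immediate-early genes, 2 rose and 3 did not overlap on the higher side, where the shares over all genes were 0.0978% and 3.51%. Their median difference was 0.47 (0.65 without animal 18). Fosb was higher by 2.54 and Gadd45b, a stress-responsive growth arrest gene, by 1.49, neither past the threshold (limma adjusted p of 0.165 and 0.302; 2.26 and 1.34 without animal 18). None of 24 genes that answer unfolded proteins or stalled translation passed, and their median was 0.39 (0.34 without animal 18). Their transcription factors Ddit3 and Atf4 differed by 1.91 and 1.09. Without animal 18, which read 2.77 below the nearest other air animal for Ddit3, they differed by 1.19 and 0.88. The 11 p53 and apoptosis genes had a median of 0.15, near the 0.14 of all genes, and of 0.1 without animal 18. Sesn1, a p53-induced antioxidant regulator, was lower in all exposed animals (difference -1.05, adjusted p = 0.385; -1.06 without animal 18).

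The 18 measured genes of epithelial repair had a median of 1.08, or 0.77 without animal 18. Of these, 1 rose past the threshold and 6 did not overlap on the higher side, where the shares over all genes were 0.0978% and 3.51%. Serpinb2, an inhibitor of plasminogen activators, read 10.23, 6.4, 10.99 and 11.68 in the exposed animals and 4.26, 4.25, 4.08 and 7.44 in air. It was at or under 4.72 in all air animals at 144 h, and its air signals may be near background, so that the size of its difference depends on the pseudocount. Exposed animal 4 lay below air animal 18, so the groups overlapped, and the difference of 4.82 carried an SE of 1.68 (limma adjusted p = 0.393; 5.63 and 0.474 without animal 18). Krt17, a keratin of wounded epithelium, differed by 3.43 (adjusted p = 0.25) and the membrane-binding protein Anxa2 by 2.02 (adjusted p = 0.167), both with no overlap (3.81 and 1.95 without animal 18).

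Genes that handle sulfide showed no difference past the threshold. Of 7 listed, 5 were measured, none rose or fell and none separated the groups, with a median of 0.06 (0.24 without animal 18). Sqor, the sulfide quinone oxidoreductase, read 9.53, 10.57, 10.43 and 10.81 in the exposed animals and 9.16, 10.06, 10.19 and 6.96 in air. Its difference of 1.24 (adjusted p = 0.433) was 0.53 without animal 18. Ethe1, the persulfide dioxygenase, Mpst, a sulfurtransferase, and Suox, the sulfite oxidase, differed by 0.43, -0.55 and -0.41 (adjusted p from 0.686 to 0.812). Without animal 18 these became 0.27, -0.27 and 0.24, so that the direction of Suox turned. The 18 subunits and assembly factors of cytochrome c oxidase, the enzyme H2S blocks, had a median of 0.13, or 0.01 without animal 18, and the 36 genes of the other respiratory complexes 0.01 or -0.19. No gene of these lists passed and none of them separated the groups with all 8 animals.

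Among 18 genes of glycolysis and the hypoxia response none passed, the median was 0.4 (0.21 without animal 18), and 2 did not overlap on the higher side, against 3.51% of all genes. The glucose transporter Slc2a1 read 9.43, 9.78, 10.28 and 10.91 against 8.38, 8.72, 8.94 and 6.25, higher by 2.03 (limma adjusted p = 0.174; 1.42 without animal 18). Ndrg1, a hypoxia-inducible gene, differed by 2.25 and by 0.99 without animal 18, which stood at 5.95 where the other air animals stood at 10.73 to 11.18.

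Genes for making and destroying proteins had differences that rested on animal 18 to unequal degrees. All 30 measured genes of ribosome biogenesis had a positive difference (26 without animal 18; background 59.3%), with a median of 0.48 that was 0.44 without animal 18. Of these, Mrto4 rose and 5 did not overlap on the higher side (background 3.51%). Among the 5 was Wdr12, which read 9.33, 9.36, 9.33 and 10.02 against 9.12, 7.88, 8.21 and 5.98 (difference 1.72, adjusted p = 0.25; 1.11 without animal 18). Of the 32 proteasome subunits 31 had a positive difference, none passed, and the median of 0.54 was 0.26 without animal 18. The ATPase subunit Psmc4 differed by 1.52 with animal 18, which read 5.83 against 10.51 to 10.58 in the other air animals, and by 0.35 without it. The median of 23 cytosolic ribosomal proteins was 0.35 with animal 18 and -0.03 without it. The 17 aminoacyl-tRNA synthetases, which load amino acids onto transfer RNA, had a median of 0.47 (0.29 without animal 18), and none passed; Wars1 was higher by 0.8 with no overlap (adjusted p = 0.399; 0.64 without animal 18).

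**Figure D3:**
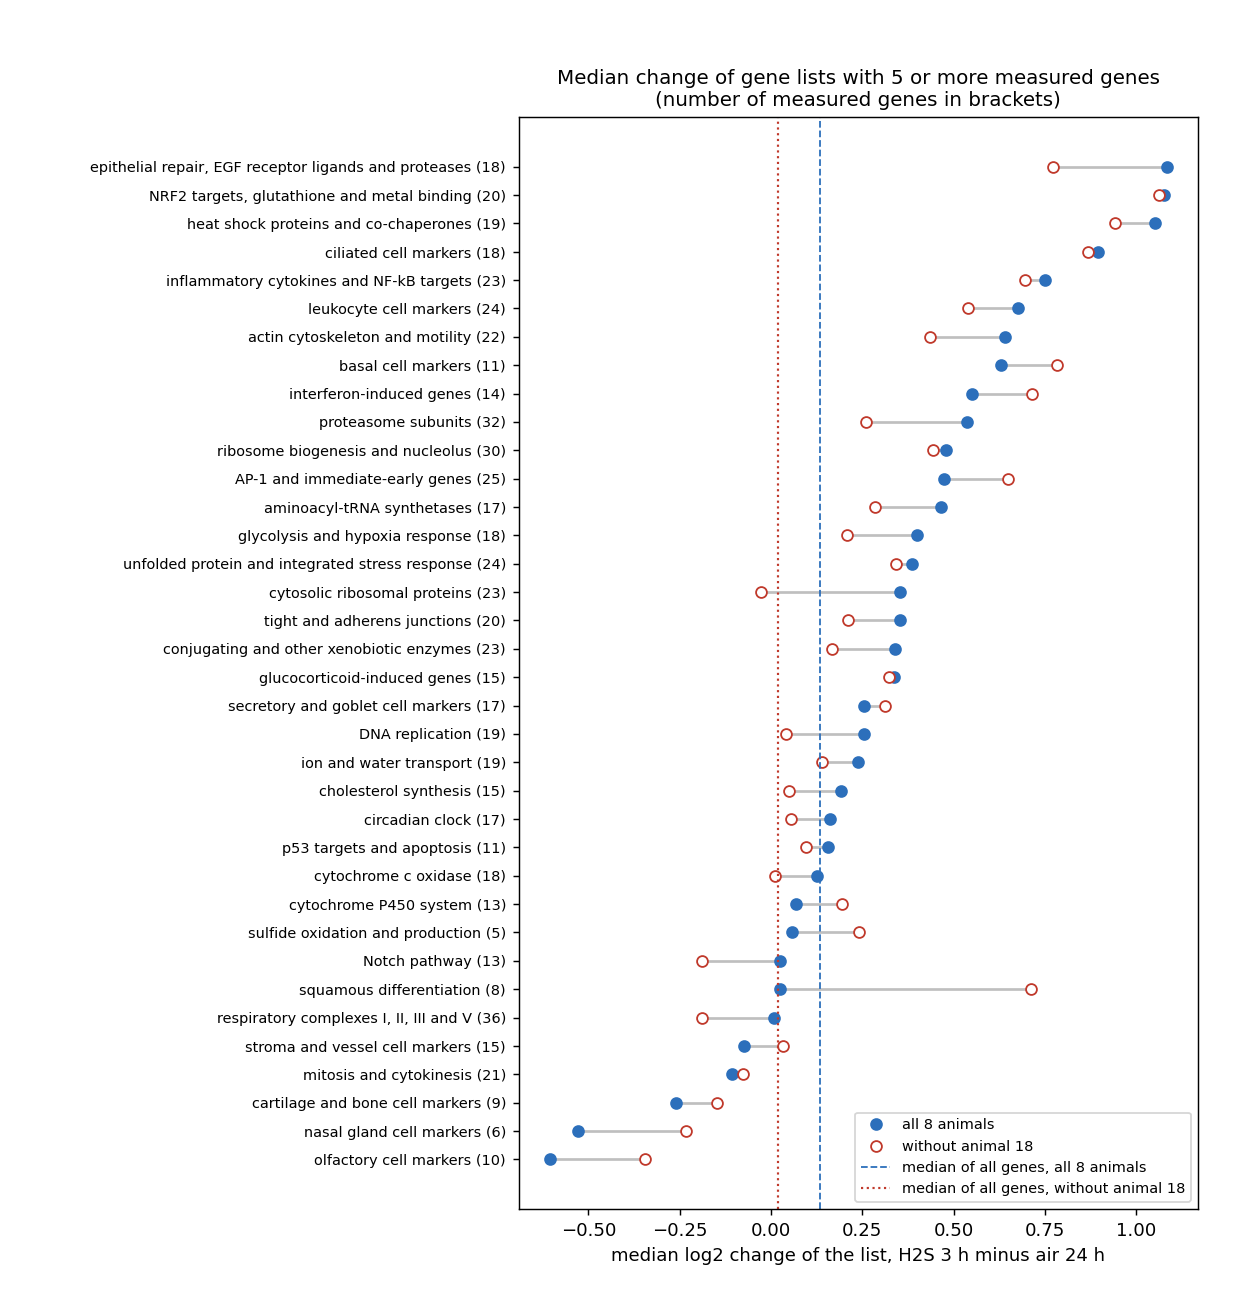
Median log2 difference of each gene list with 5 or more measured genes, H2S at 3 h minus air at 24 h. Filled points use all 8 animals, open points leave out animal 18, and vertical lines mark the medians of all genes (0.14 and 0.02); the NRF2 list stays above 1 in both, while the ribosomal protein list moves from 0.35 to -0.03.

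No junction, cytoskeleton or transport gene passed the threshold. Of 22 actin cytoskeleton genes, 19 had a positive difference (background 59.3%) and 4 did not overlap on the higher side (background 3.51%), with a median of 0.64 (0.44 without animal 18). Ezr, which ties actin to the apical membrane, read 12.99, 13.07, 12.94 and 13.34 against 11.97, 11.65, 12.1 and 10.8, higher by 1.45 (SE 0.35, limma adjusted p = 0.165; 1.18 without animal 18). The exposed animals lay within a range of 0.4 for Ezr and none overlapped. The 20 junction genes had a median of 0.35 (0.21 without animal 18), with 2 not overlapping: Cldn4, a tight junction claudin, higher by 2.13 (adjusted p = 0.32), and F11r, a junctional adhesion molecule, by 1.03 (adjusted p = 0.466), and without animal 18 by 2.3 and 0.98. Of 19 ion and water transport genes 11 had a positive difference, near the background share, with a median of 0.24 (0.14 without animal 18). The water channel Aqp3 was higher by 1.77 with no overlap (1.82 without animal 18), and the chloride channel Ano1 lower by 1.25, or by 1.54 with no overlap once animal 18 was left out (adjusted p of 0.365 and 0.398 with all animals).

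Enzymes of xenobiotic metabolism, for which the nose is rich, held no gene past the threshold. Of 13 genes of the cytochrome P450 system 7 had a positive difference, with a median of 0.07 (0.19 without animal 18), and of 23 conjugating and other enzymes 13, with a median of 0.34 (0.17 without animal 18). Cyp2a3, a nasal P450, read 12.49, 11.24, 12.29 and 12.88 against 13.1, 14.25, 13.72 and 12.43, a difference of -1.15 (adjusted p = 0.399) that was -1.46 with no overlap without animal 18. Fmo5 and Cbr1, a monooxygenase and a carbonyl reductase, differed by 1.48 and 0.99 (1.79 and 0.97 without animal 18). Cholesterol synthesis genes had a median of 0.19 that was 0.05 without animal 18 (15 genes, none past the threshold).

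No inflammatory gene passed the threshold. Of 23 cytokine and NF-kB genes 21 had a positive difference (background 59.3%), with a median of 0.75 (0.7 without animal 18), and 1 did not overlap on the higher side (background 3.51%). Ptgs2, the inducible cyclooxygenase, read 8.82, 7.31, 8.89 and 8.58 against 6.75, 5.18, 7.51 and 5.34, and the groups overlapped through animals 4 and 17. It was higher by 2.21 (SE 0.51, limma adjusted p = 0.132; 1.92 without animal 18). Il1b differed by 1.07 and Ccl20, a chemokine of epithelial cells, by 1.97 (adjusted p of 0.435 and 0.493; 1.33 and 1.45 without animal 18). The 14 interferon-induced genes had a median of 0.55 (0.71 without animal 18), 3 of them not overlapping on the higher side, none passed, and the antiviral Rsad2 was higher by 2.52 with animal 18 and by 1.69 without it. Of 24 leukocyte markers none passed, 20 had a positive difference and 2 did not overlap, the median was 0.68 (0.54 without animal 18), and their mean level relative to all genes ran from 0.2 to 1.63 in the exposed animals and from -0.38 to 0.98 in the air animals. The pan-leukocyte gene Ptprc read 11.08, 11.71, 9.69 and 8.74 against 12.45, 8.67, 10.12 and 6.23 and overlapped widely. The part of leukocytes in the inflammatory values was not tested, and a bulk signal cannot separate more cells of a type from more RNA per cell.

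Genes that follow the time of day were examined because the groups differ in hour. The 17 circadian clock genes had a median of 0.16 (0.06 without animal 18), none passed and none separated the groups. Per2, Nr1d1 and Bmal1 differed by 0.53, -0.64 and -0.94, and without animal 18 by 0.38, -0.44 and -0.23. The 15 glucocorticoid-induced genes had a median of 0.34 (0.32 without animal 18), with none past the threshold and 2 not overlapping on the higher side, against 3.51% of all genes. Fkbp5, a glucocorticoid-induced immunophilin, read 10.36, 10.13, 9.95 and 10.65 against 9.35, 9.5, 9.03 and 5.45 (difference 1.94, adjusted p = 0.355; 0.98 without animal 18). Tsc22d3, another such gene, differed by -1.13, or by -0.61 without animal 18, the highest of the air animals for it. Whether the hour of sampling has a part in these values was not tested.

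Growth and differentiation genes showed no gene past the threshold at 3 h. The 19 DNA replication genes had a median of 0.25 (0.04 without animal 18) and the 21 mitosis genes -0.11 (-0.08). Mki67, a marker of dividing cells, read 9.88, 9.89, 9.13 and 7.69 against 10.37, 9.39, 9.23 and 7.29, a difference of 0.08 that turned to -0.52 without animal 18. The 13 Notch genes had a median of 0.02 (-0.19 over 12 genes without animal 18). The 8 genes of squamous differentiation had 0.02, and 0.71 over 7 genes without animal 18, whose mean level for this list was 0.28 where the other air animals ran from -2.38 to -1.95.

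Markers of the cells that the captured tissue could hold were compared in the same way. Basal cell markers had a median of 0.63 (11 genes, 8 positive, 3 not overlapping on the higher side) and ciliated cell markers 0.89 (18 genes, 16 positive, 5 not overlapping), where the background shares are 59.3% and 3.51%. None of these markers passed, and both lists kept a positive median without animal 18 (0.78 and 0.87). The defining genes Krt5 and Foxj1 overlapped between the groups and differed by 0.74 and 0.3 (adjusted p of 0.794 and 0.842). For Krt5 the overlap came from animal 18 alone: it read 9.12, 9.31, 9.26 and 11.07 against 7.95, 8.2, 9.09 and 10.55, and without animal 18 the difference was 1.28. Foxj1 still overlapped without it, with a difference of 0.36. Krt15 and Krt14, keratins of basal cells, differed by 1.94 and 2.04 with no overlap (adjusted p of 0.359 and 0.5; 1.93 and 2.26 without animal 18). Secretory markers had a median of 0.26 (0.31 without animal 18), with the mucin Muc1 higher by 2.31 (adjusted p = 0.253; 1.81 without animal 18). Nasal gland, olfactory, and cartilage and bone markers had negative medians (-0.53, -0.61 and -0.26), and stroma and vessel markers -0.07. Without animal 18 these medians were -0.23, -0.34, -0.15 and 0.03. The olfactory marker Omp read 5.78, 5.03, 4.87 and 5.49 in the exposed animals and 5.06, 5.4, 6.3 and 9.09 in air, so that no animal but 18 exceeded 6.3. Collagen Col1a1 read 14.75 to 16.56 in the exposed and 15.29 to 15.97 in the air animals, a difference of -0.07 (0.06 without animal 18), and was thus among the brightest genes of both groups. The part of cell makeup in the gene differences was not tested.

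Most genes belong to none of the 38 lists. Over these 10607 genes, 58.6% had a positive difference, the median was 0.12 (0.01 without animal 18), 322 (3.04%) did not overlap on the higher side and 142 (1.34%) on the lower side, and 1, Spetex2l2, passed the threshold. The genes described next are the 15 higher and 15 lower ones with the smallest p among those that did not overlap with or without animal 18. Apart from Spetex2l2, they missed the adjusted threshold, and they are given as values.

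Krt19, a keratin of simple epithelia, read 12.28, 12.26, 12.3 and 13.79 against 9.03, 9.41, 10.84 and 9.46, a difference of 2.97 (SE 0.61, limma adjusted p = 0.077; 2.9 without animal 18). The exposed animals 3, 4 and 5 lay within a range of 0.04 and animal 6 stood above them. Crb3, which sets apical polarity, differed by 2.32 (1.67 without animal 18), Kazn, a protein of desmosomes, by 1.86, Tubb6, a tubulin, by 2.49 and Rnd1, a small GTPase that loosens actin fibres, by 2.14. Without animal 18 the last 3 differed by 1.55, 1.95 and 2.18. Lgals3, a galectin that binds surface sugars, read 12.79, 13.72, 13.84 and 14.68 against 11.75, 11.89, 11.94 and 11.69, a difference of 1.94 (1.9 without animal 18) with the air animals within a range of 0.25.

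Calcb, which encodes a calcitonin gene-related peptide, read 12.08, 10.82, 12.37 and 13.04 in the exposed animals against 7.86, 7.87, 9.35 and 8.65 in air. Its difference was 3.65 (SE 0.77, limma adjusted p = 0.0828), and 3.72 without animal 18. Sfn, the stratifin of squamous and glandular epithelium, read 10.07, 10.6, 10.11 and 12.45 against 7.62, 7.89, 7.11 and 8.71, a difference of 2.98 (limma adjusted p = 0.165; 3.27 without animal 18). The vasopressin-induced gene Avpi1 was higher by 1.56, Vmp1, a protein of autophagosome formation, by 1.16, and the glycan enzymes B4galt1 and Chst5 by 1.41 and 2.18. Without animal 18 these 4 differences were 1.44, 1.28, 1.4 and 2.12.

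On the lower side Pla2r1, a receptor of secreted phospholipases, read 4.93, 5.6, 6.71 and 4.63 against 7.06, 7.97, 7.05 and 9.73, a difference of -2.48 (limma adjusted p = 0.0828; -1.89 without animal 18). Tril, an accessory protein of Toll-like receptors, read 8.22, 7.47, 7.28 and 6.53 against 8.52, 10.2, 8.85 and 9.48, a difference of -1.89 (limma adjusted p = 0.0828; -1.82 without animal 18). Serf1 lay between 8.53 and 8.67 in the exposed animals and between 9.44 and 10.21 in air, the narrowest exposed range of the lower genes. Esrrg, a nuclear receptor of oxidative metabolism, was lower by 2.17 and by 2.31 without animal 18. Itgb5, an integrin subunit, Nkd1, an inhibitor of Wnt signalling, and Flrt3, an adhesion protein, were lower by 1.24, 1.32 and 1.25 (adjusted p of 0.25 to 0.265), with differences of -1.06, -1.26 and -1.07 without animal 18. Animal 18 was the highest of the air animals for 11 of the 15 lower genes and the lowest for 8 of the 15 higher ones.

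**Figure D4:**
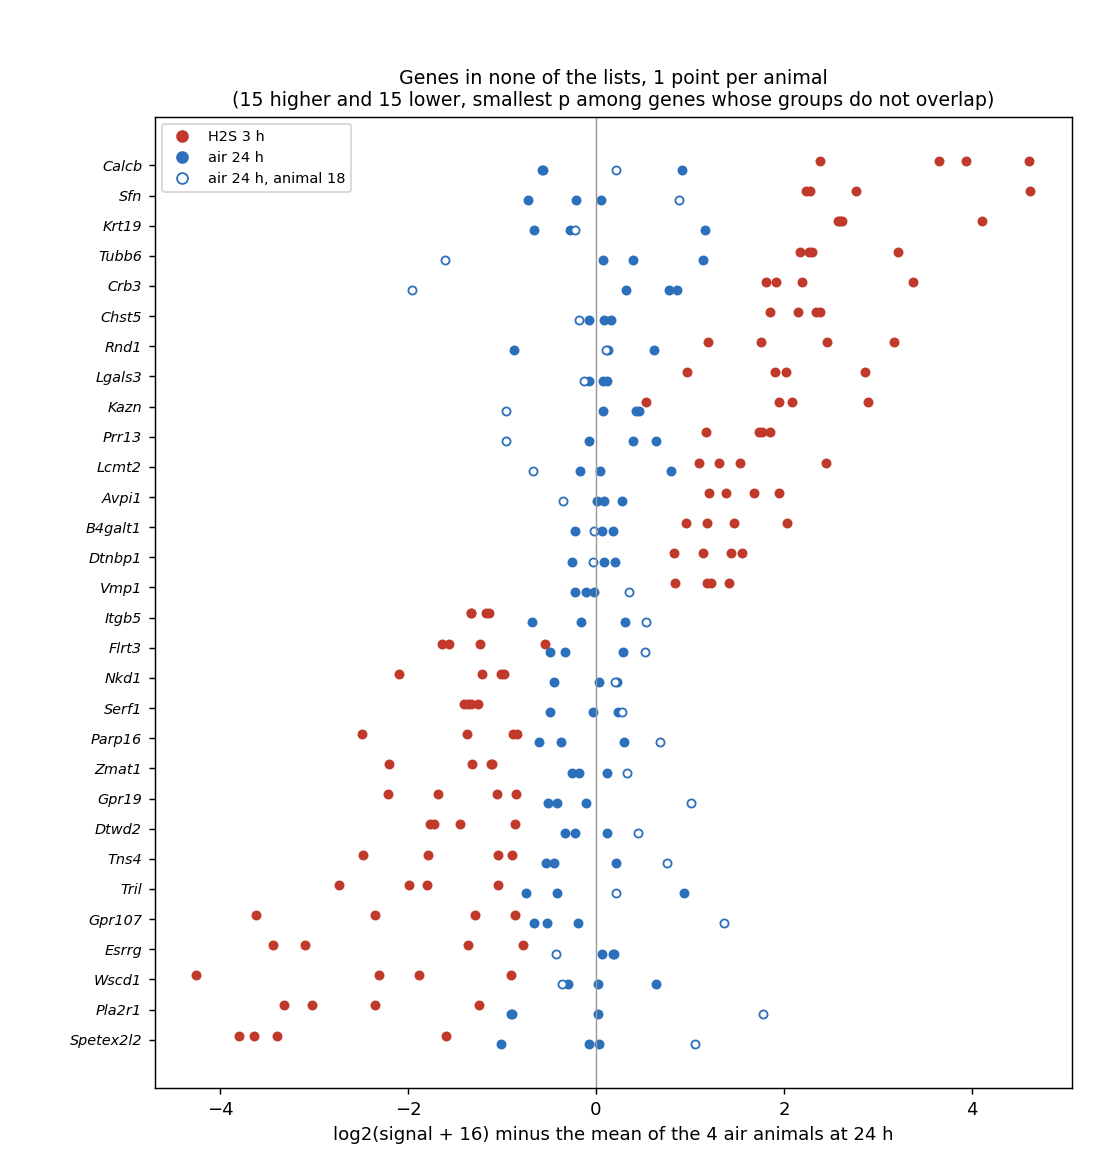
Genes in none of the lists, 15 higher and 15 lower in the exposed animals, with 1 point per animal. The horizontal axis is log2(signal + 16) minus the mean of the 4 air animals at 24 h; red points are exposed animals, blue points air animals and open circles animal 18. No red point lies among the blue ones of the same gene, which the choice of genes required, and the spread of the red points is widest for Wscd1 (3.35).

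Both air groups also served as 1 joint reference, so that the exposed animals were set against air animals of 2 sampling times. With all 8 air animals 40 probe sets passed, and without animals 18 and 22 there were 145 (0.762% of 19036), 101 higher (0.531%) and 44 lower (0.231%). These carry 95 genes, 71 higher (0.647% of genes) and 24 lower (0.219%), of which 83 did not overlap with any of the 6 air animals, 33 belong to a list and 62 to none. Over all genes, 290 (2.64%) lay above and 166 (1.51%) below these 6 animals without overlap. The count ranged from 33 without animal 6 to 280 without animal 3, and was 72 without animal 16, 77 without animal 5, 81 without animal 19, 82 without animal 15, 89 without animal 17 and 96 without animal 4. This reference shares its exposed animals and 3 air animals with the comparison above. The means of the 2 air groups were averaged with equal weight. The SE and p therefore reflect the spread within groups and not that between the 2 air groups. For Batf and Npas2 the SD over the 6 air animals was 1.43 and 0.845, and the SE 0.336 and 0.223. The fits that leave out 1 animal share this limit. The genes named next were chosen after their values were seen.

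Of the 71 genes that rose against these 6 animals, 39 were in no list. NRF2 genes past the threshold numbered 6 of 20, immediate-early genes 6 of 25, repair genes 5 of 18 and heat shock genes 4 of 19. All of these were higher, where the share over all genes was 0.647%. Hmox1 was higher by 3.7, Nqo1 by 2.33 and Gpx2, a glutathione peroxidase of epithelia, by 2.09 (limma adjusted p of 0.000601, 0.0042 and 0.0141). Maff, a small partner of NRF2, read 8.38, 8.85, 9.12 and 9.67 in the exposed animals against 5.91 to 7.33 in the 6 air animals, a rise of 2.08 (limma adjusted p = 0.00246). Hmox1, Nqo1 and Maff passed in all 10 fits that left out 1 animal, and Gpx2 in 9. Animal 22, left out of this reference, lay within the exposed range for Nqo1 (13.55) and Gpx2 (15.14). It lay below that range for Hmox1 (9.08) and Maff (5.51). Animal 18, left out as well, read 10.68 for Hmox1 and 9.57 for Maff, both within the exposed range. Against the 4 air animals at 24 h Maff differed by 1.49 (limma adjusted p = 0.4). Of the repair genes, Plat, the tissue plasminogen activator, rose by 1.81, Timp1, an inhibitor of matrix proteases, by 1.93 and Anxa3 by 1.56, and these passed in 8, 5 and 4 of the 10 fits. Animal 22 read 11.37 for Timp1, above every exposed animal. It read 9.55 for Plat, within the exposed range, and 9.94 for Anxa3, below it. Animal 18 read 9.83 for Plat and 10.26 for Anxa3, both within the exposed range. Against the 4 air animals at 24 h Plat differed by 1.46 and Anxa3 by 1.18 (limma adjusted p of 0.317 and 0.393). No gene of the sulfide, respiratory, proteasome, ribosomal protein, P450, interferon, leukocyte or ciliated lists passed.

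Outside the lists, Prss22, a serine protease of airway epithelium, read 9.12, 10.12, 9.36 and 11.11 in the exposed animals against 6.84 to 7.72 in the 6 air animals. It rose by 2.64 (SE 0.35, limma adjusted p = 0.000955) and passed in all 10 fits, whereas against the 4 air animals at 24 h alone, animal 18 included, its difference was 1.79 (adjusted p = 0.393). Animals 22 and 18, left out of this reference, read 9.53 and 10.25, both within the exposed range. Lgals3 (2.19), Krt19 (2.76) and Batf, an AP-1 family factor of immune cells (2.11), passed in all 10 fits too. Animal 22 read 12.74 for Krt19 and 8.7 for Batf, both within the exposed range. For Lgals3 it read 12.77, just under the lowest exposed animal. Against the 4 air animals at 24 h Batf differed by 1.3 (adjusted p = 0.491). It differed between the air groups, at 7.52 to 8.21 in animals 15 to 17 and 4.77 to 6.6 in animals 19 to 21, and its lowest exposed animal, at 8.25, lay close to the former. Angptl4, an inhibitor of lipoprotein lipase, rose by 2.05 and the orphan receptor Gprc5a by 3.19 (both limma adjusted p = 0.0135), in 9 and 8 of the 10 fits. For Gprc5a animal 18 read 9.23, within the exposed range (9.08 to 11.77). The difference of Gprc5a from the 4 air animals at 24 h was 2.49 (limma adjusted p = 0.229).

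Il1rl1, the receptor of interleukin-33, read 9.08, 8.49, 8.74 and 10.38 against 4.64 to 7.41 in the 6 air animals, a rise of 3.03 (limma adjusted p = 0.0394). Against the 4 air animals at 24 h its difference was 1.79 (adjusted p = 0.483). Animal 18 read 8.9, within the exposed range, and without it the difference was 2.3. Il1r2, the decoy receptor of interleukin-1, rose by 2.14 and the signalling adaptor Myd88 by 1.09 (limma adjusted p of 0.0372 and 0.0399). Animal 22, left out of this reference, read 9.21 for Il1r2, above every exposed animal. For Myd88 it read 9.87, just under the lowest exposed animal. Animal 18, also left out, read 7.07 for Il1r2 and 9.99 for Myd88, both within the exposed range. Against the 4 air animals at 24 h Il1r2 differed by 1.49 and Myd88 by 0.84 (limma adjusted p of 0.503 and 0.405). Ptges, the prostaglandin E synthase that acts after Ptgs2, rose by 1.34 and Ptgs2 by 2.06 (limma adjusted p of 0.0434 and 0.0375). These calls were less steady, holding in 2 to 5 of the 10 fits that left out 1 animal.

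Fewer genes fell against the 6 air animals. Cxcl12, a chemokine made by stromal cells, read 10.91, 10.59, 10.59 and 10.28 in the exposed animals against 11.33 to 12.97 in the 6 air animals, a fall of 1.26 that its second probe set shared (-1.15). Animal 22, left out of this reference, read 10.13 for Cxcl12, below every exposed animal. Animal 18, also left out, read 10.43, within the exposed range. The difference of Cxcl12 from the 4 air animals at 24 h was -1.24 (limma adjusted p = 0.381). Nrep, the neuronal regeneration related protein, fell by 1.67 and Nudt12, a peroxisomal NADH hydrolase, by 1.47, each in 9 of the 10 fits. Against the 4 air animals at 24 h they differed by -0.95 and -0.83 (adjusted p of 0.551 and 0.453). Animal 22 read 10.46 for Nrep, within the exposed range, and 8.58 for Nudt12, above it. Animal 18 read 10.28 for Nrep and 6.97 for Nudt12, both within the exposed range. Tmem35a, a chaperone of acetylcholine receptors, fell by 1.69 in all 10 fits although 1 air animal lay within the exposed range. Mmut, the methylmalonyl-CoA mutase, and Pfkm fell by 1.35 and 1.4, in 2 and 3 fits. Animal 22 read 9.69 for Mmut, within the exposed range, and 10.18 for Pfkm, above it. Animal 18 read 10.06 for Mmut, within the exposed range, and 9.91 for Pfkm, above it. Against the 4 air animals at 24 h Mmut differed by -0.99 and Pfkm by -1.05 (limma adjusted p of 0.491 and 0.385). The clock factor Npas2 fell by 1.2 against the 6 animals, but the exposed animals (8.02 to 8.59) overlapped with the air animals 15 to 17 at 24 h (8.51 to 9.05) and lay below animals 19 to 21 at 144 h (10.01 to 10.51). Its difference from the air animals at 24 h was 0.1 with animal 18 and -0.46 without it. Of the 95 genes, 17 had a difference of the same sign but over 1.5 times smaller against the 4 air animals at 24 h, and besides Npas2 the sign turned for Fggy (-1 and 0.27).

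**Figure D5:**
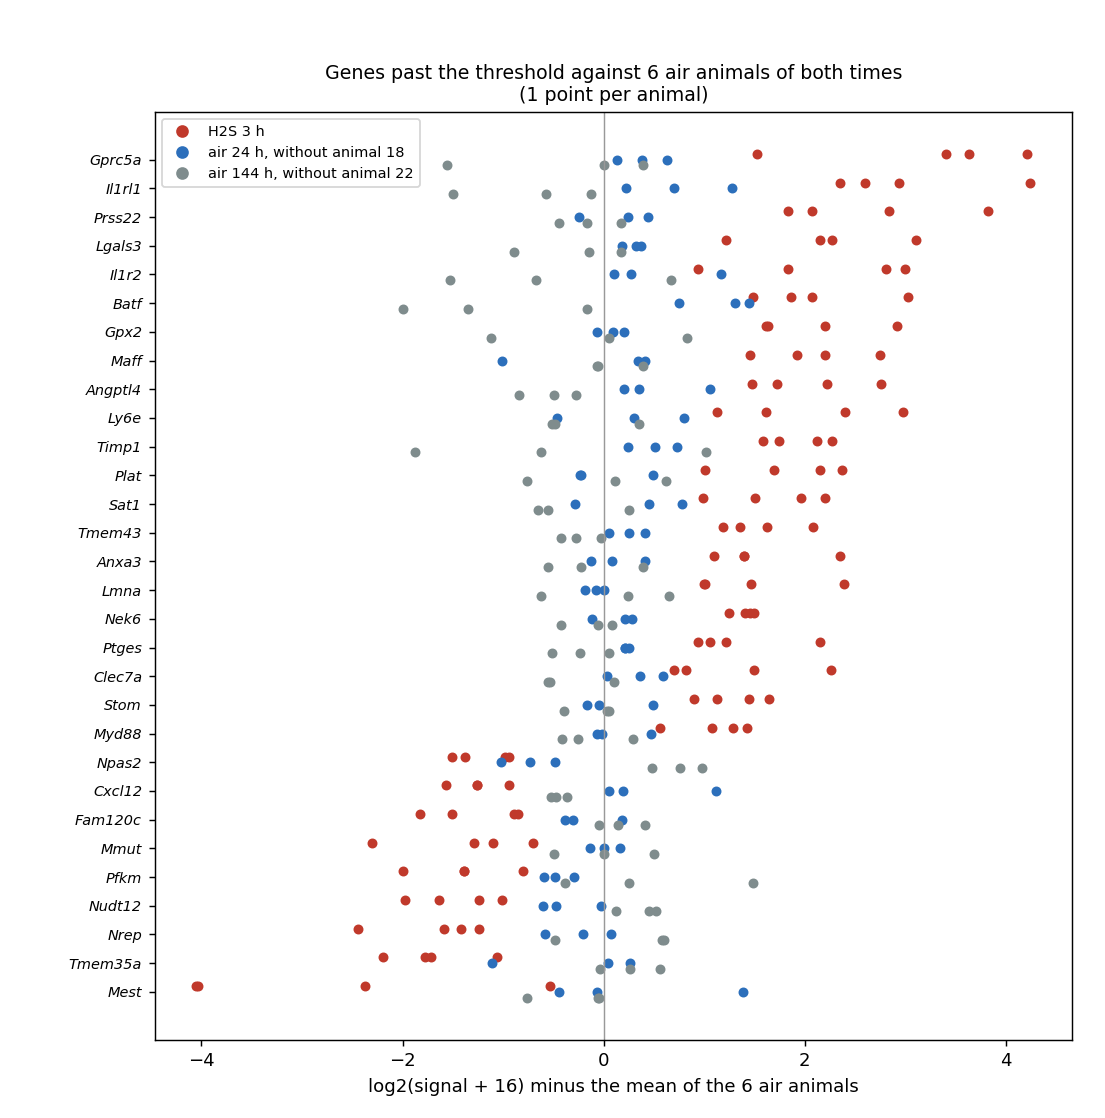
A choice of 30 genes past the threshold when the exposed animals at 3 h were compared with 6 air animals (both air groups without animals 18 and 22), 1 point per animal. The horizontal axis is log2(signal + 16) minus the mean of the 6 air animals; red points are exposed animals, blue points air at 24 h and grey points air at 144 h. Most genes separate red from both other colours, while for Npas2 and Batf the blue points lie beside the red ones.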

How the data were processed

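Each array held RNA of 1 rat on the Affymetrix Rat230_2 design. The authors' deposited table gives 1 linear intensity per probe set, from GCOS 1.0 per the submitters' processing notes, and its trimmed mean is about 500 on every array (2% trimmed at each end). Of 31099 probe sets, 57 controls were left out and 19822 that exceeded the array median on at least 3 arrays were kept (19346 without animal 18). The scale was log2(intensity + 16). Levels below an array's median may be near background, since detection calls were not used here, and the number of arrays limits the precision. Gene names came from the platform annotation: 20832 probe sets have 1 symbol, 436 several and 9831 none. A gene was represented by its brightest kept probe set with 1 symbol, which gave 11249 genes.

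All 23 arrays entered 1 limma 3.58.1 fit (R 4.3.3), with 1 mean per group, two-sided tests and Benjamini-Hochberg adjustment over the kept probe sets at 0.05. On simulated data the fit recovered 48% of 100 log2 differences of 2 and 98% of 100 differences of 4, with 5 false calls among 21180 probe sets. A list with no gene past the threshold may therefore hold differences that the test missed. The simulated noise was independent, with the same spread on every array for a given probe set. No simulated array was an outlier like that of animal 18, so the rates may differ for the real arrays. Genes named were those past the threshold with 1 symbol and no overlap between groups, the list members with the smallest p, and up to 15 genes each way outside the 38 lists. The level of a list is the mean of its genes minus the mean of all genes on that array. The comparison, its lists and its rules were chosen with earlier results of these data known. Replicates are separate animals, and nothing in the labels pairs them. Other settings were pseudocounts of 1 and 64, 2 normalizations, 2 filters, limma options, RNA integrity, other references and leaving out animals. Sequences were not used here.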

Additional observations from a re-analysis of the deposited data

Results flagged for a closer look

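Single animals stood far from the other 3 of their group for 18 of 214 groups of 4 tested (8.41%). Independent normal values would give about 1 in 20. These groups share the same arrays and hold genes named partly for their p, so that rate is no strict reference here. Of the 18 flags, 12 were on the air animal 18. Among the air animals at 24 h it was the lowest for Ddit3 (6.75), Ndrg1 (5.95), Psmc4 (5.83), Fkbp5 (5.45) and 2 unnamed probe sets past the threshold (5.65 and 5.6), and the highest for Zfand2a (9.98), Adora2b (9.59), Bmal1 (10.08), Tsc22d3 (11.23), Serpinb2 (7.44) and the squamous differentiation list (level 0.28). Exposed animal 6 stood apart for the other 6: it was the highest for the keratins Krt5 (11.07), Krt14 (13.96) and Krt19 (13.79), for Tubb6 (10.55) and for Wdr12 (10.02), and the lowest for Sesn1 (7.08).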

How the results depend on the processing

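The 16 probe sets past the threshold against air at 24 h became 9 with a pseudocount of 1, 8 with no filter, 67 with array weights, 8 without animals 6, 14 and 18, 40 with both air groups as the reference and 145 with both and without animals 18 and 22. The count was 0 when the RNA integrity number entered the fit (929 at an unadjusted p under 0.05), 0 on the 19 arrays that have the number with no covariate (1658), which hold 2 exposed animals, and 0 when only the compared groups were fitted (879), which leaves fewer arrays to estimate the spread. Leaving out 1 animal at a time gave 3 to 20. The 19 probe sets against air at 144 h became 30 with a pseudocount of 64, 12 with no filter, 53 with array weights, 83 without animal 18, 96 without animals 18 and 22, 30 without animals 6, 14 and 18, 3 with the integrity number in the fit, 6 on the arrays that have it, and 0 for the compared groups alone (1427); leaving out 1 animal gave 7 to 21. The 145 probe sets against 6 air animals gave 33 to 280, an alternative chosen after the data were seen. Other causes were not tested. None of the 12 genes called against air at 24 h changed sign in any setting, while Npas2 and Fggy, called against 6 air animals, differed by -1.2 and -1 there and by 0.1 and 0.27 against air at 24 h. Of 3931 values of 167 uncalled probe sets under other settings, 94 changed sign and 75 became called. The median over all genes ran from 0.01 to 0.32, the latter with median centring, and the list of other respiratory complexes was -0.18 under quantile normalization and 0.19 under median centring. No paired analysis was possible because the groups share no animal numbers. Dim genes limit what these signals can show.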
